A study of Mus musculus with 15 samples.

Results

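The trafficking genes described here are 9 of the 12545 genes listed in a table of expression in mouse T cell leukemia lines: the transcription factor gene Klf2, the egress receptor gene S1pr1, the chemokine receptor genes Ccr7, Ccr9, Ccr4 and Cxcr4, and the integrin genes Itga4, Itgb7 and Itgae. They were chosen by name, and all 9 were found in the table. RNA was sequenced from 15 leukemia lines, with 1 library per line. The 8 DKO lines were E2a-/- with floxed Lef1 alleles and an LckCre transgene (E2a-/-LefF/F LckCre+), and the 7 E2a-/- lines, titled SKO, had the genotype E2a-/-. All lines were untreated, of the FVB/NJ strain and derived from thymus, and both genotypes lacked E2A, the E protein transcription factor encoded by Tcf3. The question was how leukemias that arise without LEF1 as well as E2A differ from those that arise without E2A alone. Cre under the Lck promoter is active only from an early thymocyte stage, and the lines were grown out in culture from thymi of moribund mice, so they had been away from the stroma, endothelium and chemokine gradients of the thymus. In RNA from whole cultures, fewer cells expressing a gene and less RNA per cell cannot be told apart.

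KLF2 is a zinc finger factor that is low in immature thymocytes and rises as mature T cells prepare to leave the thymus, where it drives transcription of S1pr1. S1PR1 senses sphingosine 1-phosphate in blood and lymph and is needed for exit from the thymus. CXCR4 and CCR9 hold early thymocytes near the cortical stroma, CCR7 and CCR4 draw positively selected cells into the medulla, and the integrin chains pair into α4β7, a gut homing receptor, α4β1, a receptor for VCAM1, and αEβ7, a receptor for E-cadherin.

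The libraries held between 4847970 reads on listed genes in DKO79.9, the shallowest, and 21681586 in SKO95. Values are CPM, counts scaled to library size, in which 1 read was worth 0.206 CPM in DKO79.9 and between 0.0461 and 0.0690 CPM in the other 14 lines. The targeted gene, Lef1, was between 103 and 210.2 CPM in the DKO lines and between 668 and 1558 CPM in 6 E2a-/- lines. In the library labelled SKO132, which carries the E2a-/- label, Lef1 was at 59.0 CPM, below every DKO line, so the differences of the 9 genes and of Lef1 are also given without that library. The log2 fold change of Lef1 (DKO over E2a-/-, on the log2(CPM + 1) scale) was -2.33 ± 0.53 (SE; limma adjusted p = 0.0980), and -2.91 without SKO132 (adjusted p = 4.88e-06). With all 15 lines, Lef1 had an adjusted p of 0.00166 by limma with array weights. On reads it was 1.19e-09 by edgeR's likelihood ratio test, 2.10e-08 by DESeq2 and 0.0369 by edgeR's quasi-likelihood test. T cell identity genes were present in every library: the 15 genes of the fixed list summed to between 5163 CPM in SKO132 and 9762 CPM in DKO79.9, none of them at 0 in any line, with Tcf7, a T cell factor of the same family as LEF1, the most abundant in all 15. The sum hides low single genes. In SKO132, Cd3d (47.0 CPM), Zap70 (35.9), Trbc1 (0.276) and Cd2 (0.496) were each at their lowest of all lines. Trac, at 112 CPM, was at its highest there. Notch1 was also lowest in SKO132, at 31.3 CPM. Trbc1 was low in DKO241 (0.850 CPM), DKO548 (0.460) and DKOTu3 (0.631) as well. Of all pairs of lines, SKO156.6 and SKO186.5 were the most alike (Spearman's rho across genes 0.987). They were counted as separate lines, as labelled, and averaging them changed no call among the 9 genes.

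The level of most of these genes varied widely between lines of the same genotype. Of the 9 genes, 8 varied more between lines than at least 93.8% of the listed genes did (SD of log2(CPM + 1) between 1.49 for Ccr4 and 2.37 for Itgae). Cxcr4 had an SD of 0.38, at the 52.1 percentile of listed genes. For 5 of the 9 genes (Klf2, Ccr9, Ccr4, Itgb7 and Itgae) the 3 highest lines were SKO115.2, SKO163.5 and DKO79.9, of which 2 are E2a-/- and 1 is DKO. DKO79.9, the highest DKO line for these 5 genes, was also the shallowest library. Since each line gave 1 library, only counting error can be given for a single value. Error from culture, RNA and library preparation could not be estimated, so the intervals below are too narrow by an unknown amount. The p-values below measure the spread between lines, which the sources used here do not tie to separate mice. When the lines were ordered by level, the 95% exact Poisson intervals of neighbours overlapped for 11 of 14 neighbouring pairs for Klf2, 12 for S1pr1, 10 for Ccr7, Itga4 and Itgb7, 9 for Itgae, 8 for Cxcr4 and 5 for Ccr9 and Ccr4.

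**Figure D1:**
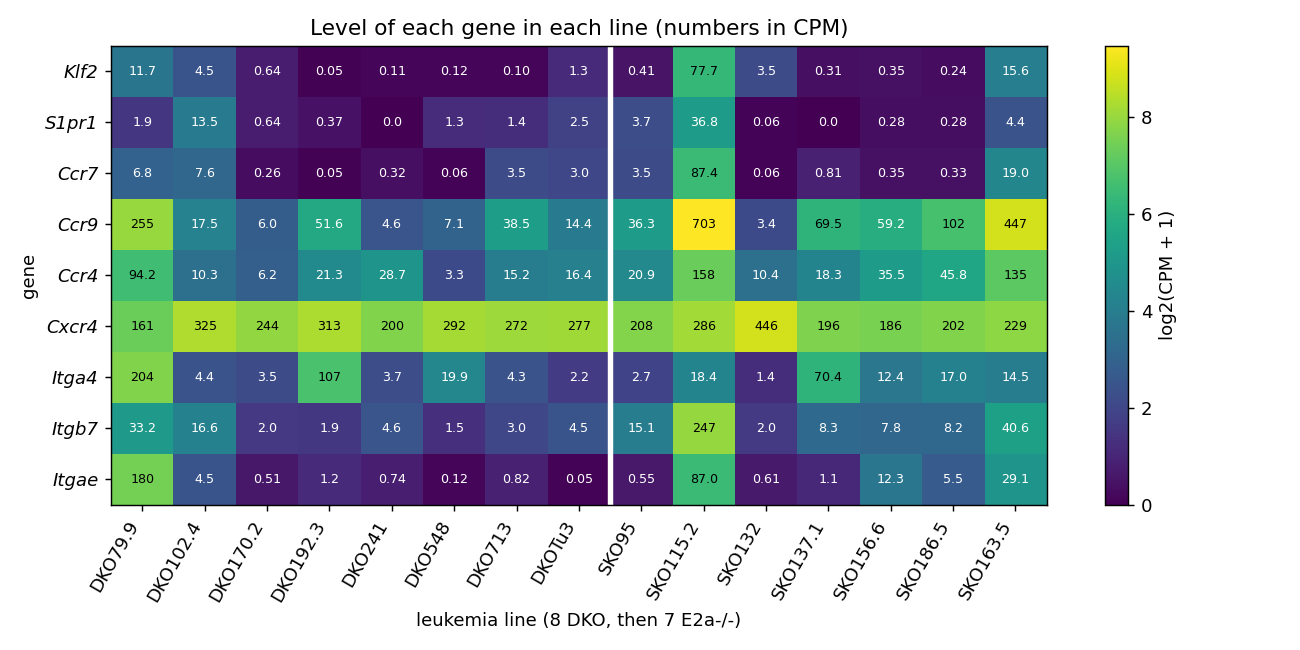
Level of the 9 genes (rows) in the 15 lines (columns, 8 DKO left of the white bar and 7 E2a-/- right of it), coloured by log2(CPM + 1) with the CPM value printed in each cell. SKO115.2, SKO163.5 and DKO79.9 are bright for Klf2, Ccr9, Ccr4, Itgb7 and Itgae, whereas the row of Cxcr4 is bright throughout.

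Klf2 was barely transcribed in most lines and abundant in 1. Klf2 (ENSMUSG00000055148) is listed on chromosome 8 from 74842932 to 74845555. The table names no assembly, and its gene starts match GRCm38 for 190 of 12172 genes and for none of the 9, so positions of genes are given as listed. In the DKO lines it was 0.0467 CPM at its lowest, 0.377 CPM at the median and 11.7 CPM at its highest, and in the E2a-/- lines the corresponding values were 0.237, 0.415 and 77.7 CPM. The highest line was SKO115.2, at 187.5 times the median of all 15 lines, followed by SKO163.5 at 15.6 CPM, DKO79.9 at 11.7, DKO102.4 at 4.50 and SKO132 at 3.53 CPM. Each of the other 10 lines was at 1.26 CPM or less. Klf2 was counted with 3 reads or fewer in 4 lines, all of them DKO (DKO192.3, DKO713, DKO241 and DKO548), so the order among these was not detectable at this depth. SKO137.1, SKO156.6 and SKO186.5 had 5 reads each, with 95% counting intervals that overlapped those of these 4 DKO lines. The genotypes overlapped: the mean was 2.31 ± 4.10 CPM in DKO lines (SD, n = 8) and 14.0 ± 28.6 CPM in E2a-/- lines (SD, n = 7), with a log2 fold change of -0.96 ± 0.90 (SE) and limma adjusted p = 0.741. It was -0.25 without SKO115.2 and -0.93 without SKO132, and edgeR and DESeq2 on reads gave -2.62 to -2.65, not called.

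Among the 15 fixed upstream regulators of Klf2 (the FOXO factors, which activate it, the AKT kinases, which keep FOXO proteins out of the nucleus, the MEK5-ERK5-MEF2 route and ubiquitin ligases), 13 were analysed. Akt1 and Mef2d were among the most abundant, at means of 235 and 181 CPM. Foxo1 was highest in SKO115.2, at 94.3 CPM, and lowest in DKO192.3, at 12.01 CPM, and DKO170.2, at 17.0 CPM, lines in which Klf2 was at 77.7, 0.0467 and 0.638 CPM. The lines did not all follow this order: DKO241 had Foxo1 at 53.7 CPM with Klf2 at 0.106 CPM, and DKO79.9, with Klf2 at 11.7 CPM, had Foxo1 at 32.6 CPM. Foxo1 was chosen after its values were seen. Of the 13, 3 had an unadjusted limma p under 0.05, as 10.2% of all listed genes had, and none passed the adjusted threshold: Foxo3 (log2 fold change -0.93, adjusted p = 0.289), the ubiquitin ligase gene Wwp1 (0.59, adjusted p = 0.386) and Mapk7, which encodes ERK5 (0.59, adjusted p = 0.407).

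The promoter of Klf2 is shown because KLF proteins bind CACCC boxes and the factors under study bind E boxes (E2A) and TCF/LEF sites (LEF1). It is given as the 250 bases before the RefSeq start (GRCm38.p6, chr8:72318812-72319061, plus strand), with matches to CACCC or CTTTGA on either strand in capitals. The window holds 1 CACCC match, read as GGGTG, and no CANNTG or CTTTGA.
Klf2 promoter: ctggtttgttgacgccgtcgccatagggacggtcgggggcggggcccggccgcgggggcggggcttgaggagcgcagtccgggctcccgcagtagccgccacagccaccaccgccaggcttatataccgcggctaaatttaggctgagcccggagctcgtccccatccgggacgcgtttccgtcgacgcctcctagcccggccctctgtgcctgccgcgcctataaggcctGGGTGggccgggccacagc
Over 32851 RefSeq windows of the same length, 52.0% held CACCC, 66.2% CANNTG and 13.8% CTTTGA on at least 1 strand (matches to different motifs can overlap in some bases). A match describes the letters only and is not a binding site.

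S1pr1 and Ccr7, the egress receptor and the medullary homing receptor, were also low in most lines, and both were highest in SKO115.2. S1pr1 (ENSMUSG00000045092) is listed on chromosome 3 from 115413351 to 115417973 and Ccr7 (ENSMUSG00000037944) on chromosome 11 from 99005510 to 99016391. S1pr1 was 0, 1.34 and 13.5 CPM at the lowest, median and highest DKO line, and 0, 0.284 and 36.8 CPM in the E2a-/- lines. SKO115.2 (36.8 CPM) and DKO102.4 (13.5 CPM) stood above all others, the next being SKO163.5 at 4.41 CPM. S1pr1 had no reads in DKO241 and SKO137.1, where 3 reads, taken as the limit that a count of 0 allows, are worth 0.159 and 0.187 CPM (counting error only). Its log2 fold change was -0.18 ± 0.75 (SE, limma adjusted p = 0.956), and it became 0.44 when SKO115.2 was left out and -0.42 when SKO132 was left out. By edgeR and DESeq2 on reads it was -1.24 to -1.29, not called.

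Ccr7 ranged from 0.0467 CPM in DKO192.3 to 7.63 CPM in DKO102.4 among the DKO lines (median 1.66 CPM), and from 0.0552 CPM in SKO132 to 87.4 CPM in SKO115.2 among the E2a-/- lines (median 0.809 CPM). SKO163.5 was second at 19.0 CPM, and DKO102.4, DKO79.9, SKO95, DKO713 and DKOTu3 lay between 7.63 and 2.997 CPM. The remaining 8 lines were at 0.809 CPM or less, 3 of them with 3 reads or fewer, so high and low lines occurred in both genotypes. The log2 fold change was -0.72 ± 0.91 (SE, limma adjusted p = 0.820), 0.0080 when SKO115.2 was left out and -1.06 when SKO132 was left out. On reads, edgeR and DESeq2 gave -2.56 to -2.59 for Ccr7, not called. DKO102.4 was thus among the 3 highest lines for S1pr1, Ccr7 and Cxcr4, but not for the other 6 genes.

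Ccr9, the receptor for the thymic and intestinal chemokine CCL25, was transcribed in every line over a range from 3.36 to 703 CPM. Its gene (ENSMUSG00000029530) is listed on chromosome 9 from 123587557 to 123691089. It was 4.62, 16.0 and 255 CPM at the lowest, median and highest DKO line, and 3.36, 69.5 and 703 CPM in the E2a-/- lines. SKO115.2 (703 CPM), SKO163.5 (447 CPM) and DKO79.9 (255 CPM) were well above SKO186.5, the next, at 102.3 CPM. The lowest of all lines was SKO132, labelled E2a-/-, at 3.36 CPM, and the other 6 E2a-/- lines were at 36.3 CPM or more, whereas 5 of the 8 DKO lines were at 17.5 CPM or less. Mean Ccr9 was 49.4 ± 84.9 CPM in DKO (SD, n = 8) and 203 ± 266 CPM in E2a-/- lines (SD, n = 7). The log2 fold change was -1.90 ± 1.02 (SE), with a 95% interval of -4.06 to 0.26 and adjusted p = 0.559 by limma, and -2.60 without SKO132 (adjusted p = 0.226). The exons of Ccr9 overlap those of Slc6a20a on the opposite strand and of Gm17200 on the same strand, so reads may have been shared among them.

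Ccr4, the receptor for CCL17 and CCL22, had the smallest limma p of the 9 genes. The table places it (ENSMUSG00000047898) on chromosome 9 from 114399434 to 114405662. It was 3.34, 15.8 and 94.2 CPM at the lowest, median and highest DKO line, and 10.4, 35.5 and 158 CPM in the E2a-/- lines. SKO115.2 at 158 CPM, SKO163.5 at 135 CPM and DKO79.9 at 94.2 CPM were again on top, above SKO186.5 at 45.8 CPM, and the genotypes overlapped across most of their range. The log2 fold change was -1.27 ± 0.66 (SE), with a 95% interval of -2.68 to 0.14, unadjusted p = 0.0749 and adjusted p = 0.551 by limma, and an exact permutation test of the 2 groups gave p = 0.101. Leaving out SKO132 moved it to -1.57 (adjusted p = 0.353).

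The Ccr4 promoter is shown because Ccr4 lay nearest to a difference between genotypes (GRCm38.p6, chr9:114496545-114496794, minus strand, RefSeq). It holds 1 CACCC match (GGGTG) and 1 CTTTGA match (TCAAAG), both in capitals, and 2 CANNTG matches, which are not marked and of which 1 shares a base with the GGGTG match.
Ccr4 promoter: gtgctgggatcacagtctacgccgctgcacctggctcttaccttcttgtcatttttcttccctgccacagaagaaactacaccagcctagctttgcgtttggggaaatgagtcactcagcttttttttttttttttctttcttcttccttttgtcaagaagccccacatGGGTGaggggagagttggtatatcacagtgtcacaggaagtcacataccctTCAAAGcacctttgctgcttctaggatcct
Ccr4 was the only one of the 6 genes with a promoter in the RefSeq table (Klf2, Ccr9, Ccr4, Cxcr4, Itga4 and Itgb7) that held CTTTGA in this window, a motif found in 13.8% of all windows.

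Cxcr4, the receptor for CXCL12, differed from the rest in being high everywhere. It is listed (ENSMUSG00000045382) on chromosome 1 from 130484776 to 130488870. In the DKO lines it was 161, 274 and 325 CPM at the lowest, median and highest, and in the E2a-/- lines 186.1, 208 and 446 CPM. The highest line was SKO132 and the lowest DKO79.9, so the order of the lines was not that of Klf2 or Ccr9. With means of 261 ± 56.2 CPM (SD, n = 8) and 250.4 ± 92.5 CPM (SD, n = 7), its log2 fold change was 0.09 ± 0.19 (SE) and its 95% interval, from -0.32 to 0.50, was the narrowest of the 9 genes. Without SKO132, its highest line, the difference was 0.24 on the log2 scale. Per kilobase of exon, the scale on which genes can be compared, Cxcr4 had a median level of 135 CPM per kb and was the highest of the 9 genes in all 15 lines. Ccr4 followed at a median of 6.75 CPM per kb, then Ccr9 at 3.75, Itgb7 at 2.82 and Itga4 at 0.884, and S1pr1, Ccr7, Itgae and Klf2 had medians between 0.225 and 0.434 CPM per kb. This order depends on the lengths used, which join all GENCODE M21 exons of a gene (10.3 kb for Ccr9 and 3.09 kb for Ccr4). In CPM, the median of Ccr9 (38.5) was above that of Ccr4 (20.9). Only in SKO115.2 and in DKO79.9 and SKO163.5 did another gene exceed 15 CPM per kb, with Itgb7 next to Cxcr4 at 89.2 CPM per kb in SKO115.2, Ccr9 at 43.5 in SKO163.5 and Itgae at 39.3 in DKO79.9.

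**Figure D2:**
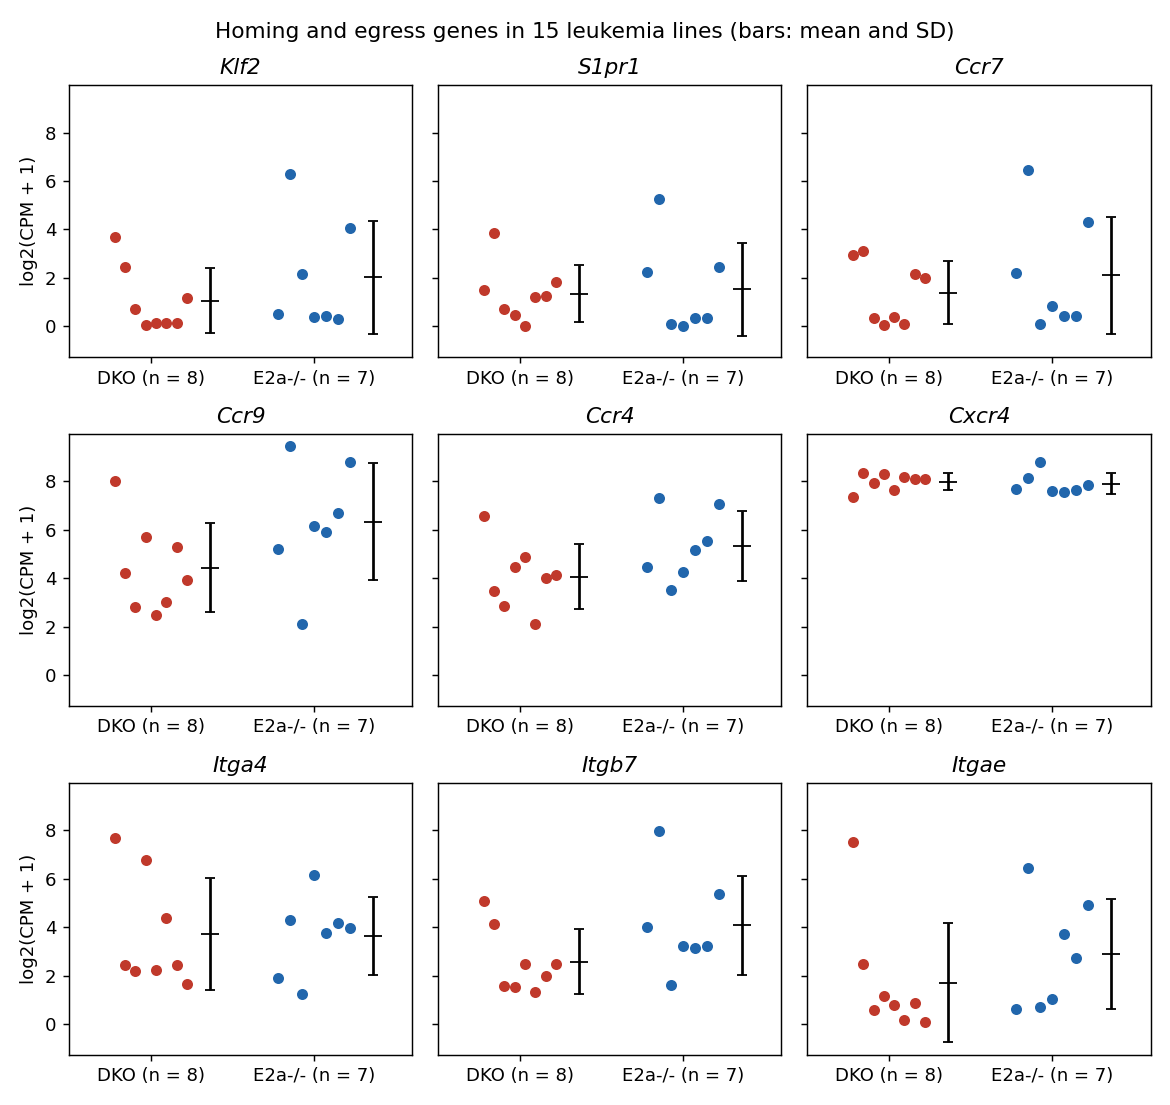
Level of each gene as log2(CPM + 1), with 1 point per line (red, 8 DKO lines; blue, 7 E2a-/- lines) and the mean and SD of each genotype beside the points. The genotypes overlap for every gene, and the points of Cxcr4 are close together, between 161 and 446 CPM.

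The β7 integrin gene Itgb7 followed the same lines as Klf2. The listed position (ENSMUSG00000001281) is chromosome 15 from 102046426 to 102062366. It was 1.495, 3.76 and 33.2 CPM at the lowest, median and highest DKO line, and 2.04, 8.34 and 247 CPM in the E2a-/- lines. SKO115.2, at 247 CPM, was 6.08 times the next line, SKO163.5 at 40.6 CPM, and DKO79.9 (33.2 CPM), DKO102.4 (16.6 CPM) and SKO95 (15.1 CPM) came after it. The log2 fold change was -1.49 ± 0.82 (SE), with a 95% interval of -3.24 to 0.25 and adjusted p = 0.566 by limma, and it was -0.85 without SKO115.2 and -1.91 without SKO132. On reads, edgeR and DESeq2 gave -2.49 to -2.52. The adjusted p was 0.0736 by edgeR's likelihood ratio test, 0.358 by its quasi-likelihood test and 0.101 by DESeq2.

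The Itgb7 promoter (GRCm38.p6, chr15:102231936-102232185, minus strand, RefSeq) was chosen after its values were seen, because of the 6 genes with a promoter in the table Itgb7 and Itga4 held the most CACCC matches, 4 each. The mean over all windows was 0.833 matches.
Itgb7 promoter: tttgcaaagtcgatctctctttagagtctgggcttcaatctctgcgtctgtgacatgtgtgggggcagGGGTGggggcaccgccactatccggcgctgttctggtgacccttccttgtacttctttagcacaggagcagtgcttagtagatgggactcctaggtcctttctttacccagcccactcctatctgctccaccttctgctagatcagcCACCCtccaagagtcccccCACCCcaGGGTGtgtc
The counts of matches are a description of these windows only.

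The partners of β7 did not share one pattern. Itga4 (ENSMUSG00000027009) is listed on chromosome 2 from 79095583 to 79173280 and Itgae (ENSMUSG00000005947) on chromosome 11 from 72904085 to 72960948. The α4 gene Itga4 was 2.16, 4.35 and 204 CPM at the lowest, median and highest DKO line and 1.38, 14.5 and 70.4 CPM in the E2a-/- lines. DKO79.9 (204 CPM), DKO192.3 (107 CPM) and SKO137.1 (70.4 CPM) were the highest, and of these only DKO79.9 was high for Itgb7. Its log2 fold change was 0.08 ± 0.97 (SE, limma adjusted p = 0.986), and leaving out DKO79.9 gave -0.49 and leaving out SKO132 gave -0.32. With edgeR and DESeq2 on reads it was 0.0070 to 1.16, not called. Exons of Itga4 overlap those of Cerkl on the opposite strand.

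Itgae, which encodes the αE chain (CD103), was nearly absent from most lines and abundant in 3. It was 0.0526 (1 read), 0.782 and 179.9 CPM at the lowest, median and highest DKO line, and 0.553, 5.55 and 87.0 CPM in the E2a-/- lines. DKO79.9 at 179.9 CPM, SKO115.2 at 87.0 CPM and SKO163.5 at 29.1 CPM were followed by SKO156.6 at 12.3 CPM, and each of the other 7 DKO lines was at 4.55 CPM or less. These 3 lines were also the 3 highest for Itgb7, its partner chain. The log2 fold change by limma was -1.18 ± 1.13 (SE, adjusted p = 0.747). It was -2.01 without DKO79.9, -0.58 without SKO115.2 and -1.55 without SKO132. DESeq2 on the recovered reads, which by default replaces outlying counts in groups of this size, gave -3.84 (adjusted p = 0.00754), and without that replacement it gave 0.22 (adjusted p = 0.973).

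None of the 9 genes passed the threshold between genotypes (limma, adjusted p under 0.01), against 0.0478% of the 12545 listed genes. At an unadjusted p under 0.05 none of the 9 passed either, where 10.2% of listed genes did, and none had groups that did not overlap, against 0.175% of listed genes. edgeR on the recovered reads also called none of the 9, by its quasi-likelihood or likelihood ratio test, and DESeq2 called 1, Itgae, against 1.41% of the genes it tested. Of the 9 log2 fold changes, 7 were negative and 2, those of Cxcr4 and Itga4, positive. Their median was -0.96, beside -0.019 for all listed genes. Without SKO115.2 alone, S1pr1 and Ccr7 turned positive (0.44 and 0.0080), which left 5 negative and 4 positive values with a median of -0.25. With all lines the 95% intervals of all 9 included 0. For 6 of the 9 genes, all except S1pr1, Cxcr4 and Itga4, the interval reached below -2 on the log2 scale, so large differences lie within the error of this comparison.

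**Figure D3:**
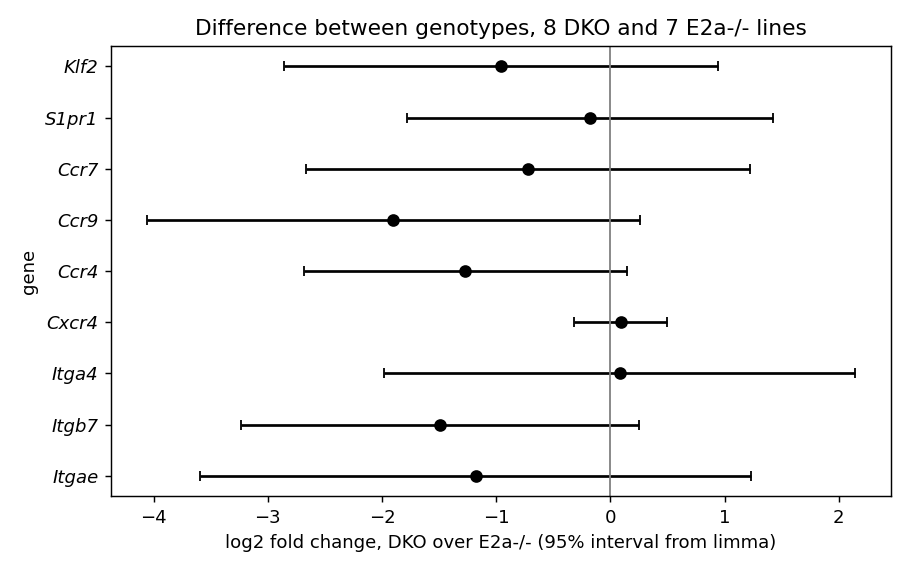
Log2 fold change of each gene (DKO over E2a-/-, from log2(CPM + 1)) with its 95% interval from limma, in 8 DKO and 7 E2a-/- lines. Every interval crosses 0, and that of Cxcr4, from -0.32 to 0.50, is the narrowest.

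Whether the receptor genes followed Klf2 from line to line was examined over the 15 lines, of which 10 had Klf2 at 1.26 CPM or less. By Pearson's r over all lines, Ccr7 was the most closely related to Klf2 (r = 0.87, permutation p = 0.000210; Spearman's rho = 0.66, p = 0.00946), followed by Itgb7 (r = 0.85, permutation p = 0.000300; rho = 0.68, p = 0.00629), which came before Ccr7 by rank. After adjustment over the 12544 other listed genes, these were the only 2 of the 8 relations with an adjusted p under 0.05 for r (0.0418 for Ccr7 and 0.0495 for Itgb7), as 0.606% of all listed genes had. By rank, 0% of listed genes and none of the 8 passed that threshold, and the adjusted p was 0.346 for Ccr7 and 0.313 for Itgb7. At an unadjusted p under 0.05, 1825 of 12544 genes passed by r and 1351 by rank.

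The remaining relations were weaker or rested on few lines. Itgae gave r = 0.79 (permutation p = 0.00185, adjusted p = 0.0926) but rho = 0.38 (p = 0.162), and S1pr1, the best known target of KLF2 in T cells, gave r = 0.76 (permutation p = 0.00292, adjusted p = 0.106) and rho = 0.61 (p = 0.0180). For Ccr4 and Ccr9, r was 0.67 and 0.62 (permutation p = 0.00587 and 0.0119, adjusted p = 0.134 and 0.179), whereas rho was 0.30 and 0.32. Cxcr4 (r = 0.11, permutation p = 0.682) and Itga4 (r = 0.16, permutation p = 0.586) showed no detectable relation. Each relation was therefore computed again without SKO115.2 and SKO163.5, the lines farthest from the median of Klf2.

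Without those 2 lines, r was 0.59 for Ccr7 (permutation p = 0.0258), 0.57 for Itgb7 (p = 0.0414) and 0.65 for Itgae (p = 0.0338), with rho of 0.47, 0.51 and 0.07 (permutation p = 0.106, 0.0784 and 0.834). For S1pr1 it was 0.43 (permutation p = 0.132), for Ccr4 0.27 (p = 0.359) and for Ccr9 0.17 (p = 0.582). For these 3, leaving out SKO115.2 alone also took the unadjusted permutation p of r above 0.05 (0.0534, 0.0557 and 0.117). Leaving out SKO163.5 alone did not. Without both lines, 13 lines over a narrower range of Klf2 remain, which by itself can lower r. Within the DKO lines alone, r was 0.94 for Itgb7 (exact permutation p = 0.00437, n = 8), 0.87 for Itgae (exact p = 0.0167) and 0.79 for Ccr7 (exact p = 0.0105). Within the E2a-/- lines it was 0.81 for Itgb7 (exact permutation p = 0.0248, n = 7), 0.77 for Itgae (exact p = 0.0387) and 0.89 for Ccr7 (exact p = 0.0196). By rank none of these had an exact permutation p under 0.05: rho for Itgb7, Itgae and Ccr7 was 0.67, 0.19 and 0.67 in DKO lines (exact p = 0.0831, 0.665 and 0.0831) and 0.54, 0.43 and 0.61 in E2a-/- lines (exact p = 0.236, 0.354 and 0.167). For S1pr1 the within-genotype values were 0.60 in DKO (exact permutation p = 0.122, n = 8) and 0.84 in E2a-/- lines (exact p = 0.0198, n = 7), with rho of 0.71 and 0.64 (exact p = 0.0576 and 0.139). For Ccr9 they were 0.61 and 0.58, for Ccr4 0.54 and 0.73, for Cxcr4 -0.44 and 0.46, and for Itga4 0.36 and 0.02, all with exact permutation p of at least 0.0623. The library labelled SKO132 departed most plainly from the relation: its Klf2, at 3.53 CPM, was the fifth highest, but its S1pr1 and Ccr7 were each at 0.0552 CPM, 1 read.

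**Figure D4:**
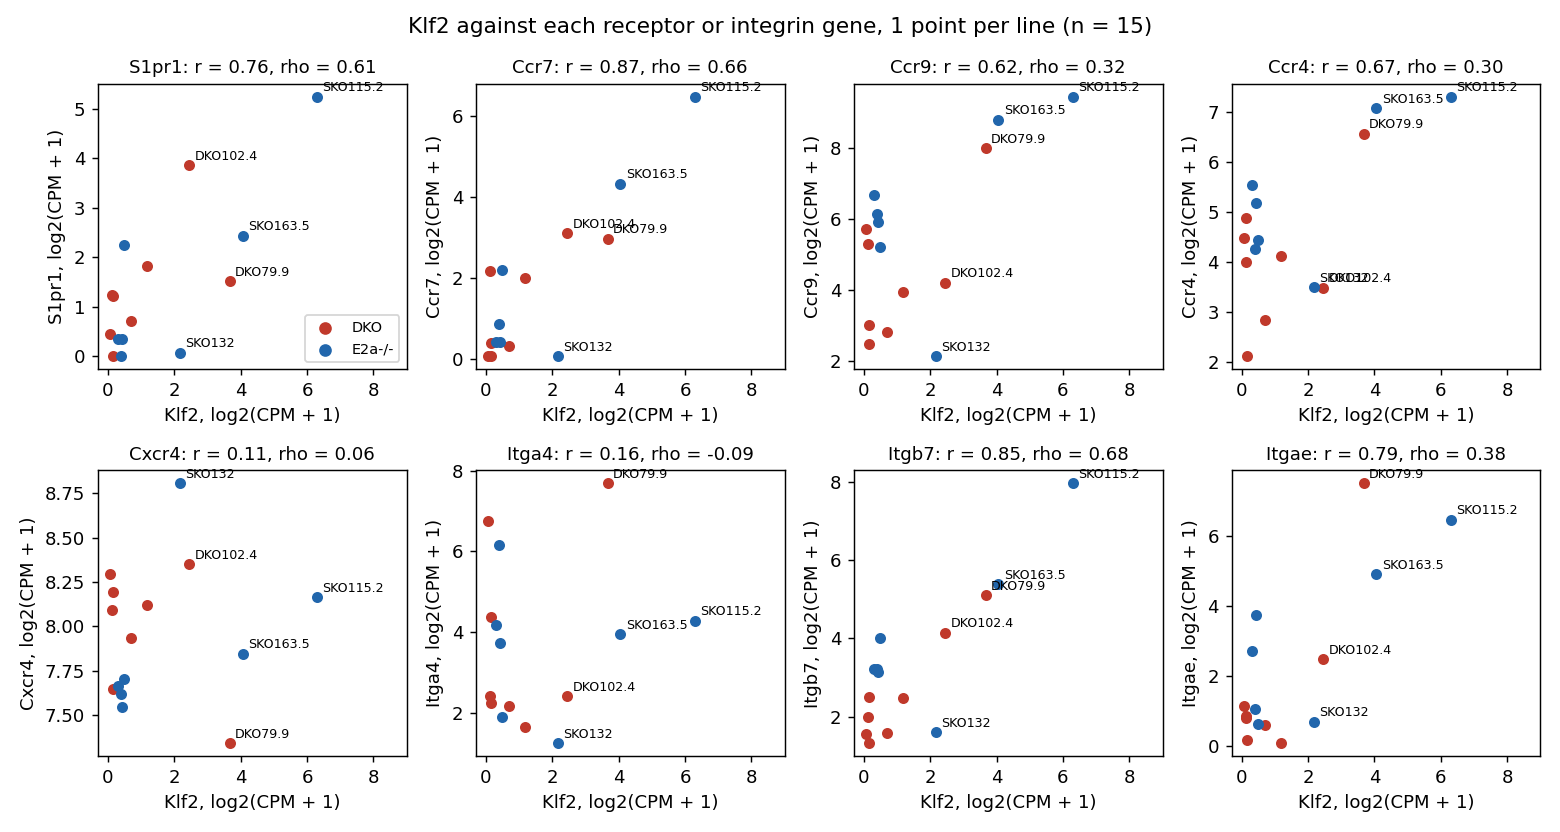
Each of the 8 receptor and integrin genes against Klf2, both as log2(CPM + 1), with 1 point per line (red, 8 DKO; blue, 7 E2a-/-) and Pearson's r and Spearman's rho over the 15 lines above each panel. Ccr7 and Itgb7 rise with Klf2 (r of 0.87 and 0.85), with SKO115.2 at the upper right, while Cxcr4 and Itga4 (r of 0.11 and 0.16) do not.

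Of the 7 genes analysed among 11 for selectins, CD44 and their glycan enzymes, none was called. The sulfotransferase gene Chst2 (log2 fold change 2.19, limma adjusted p = 0.432) had an unadjusted p under 0.05, 1 of 7, beside 10.2% of all listed genes. Spn and Selplg, which encode the cell surface mucins CD43 and PSGL-1, had means of 169.8 and 82.6 CPM.

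Of 23 chemokine receptor genes fixed as a list, 11 were analysed, 4 of them among the 9 genes, and none was called. Of these, 9 had negative and 2 positive log2 fold changes (median -0.76), where 6735 of 12545 listed genes had negative ones. Cxcr6, a receptor of effector and tissue-resident T cells, was the 1 of 11 with an unadjusted p under 0.05, beside 10.2% of listed genes. Its log2 fold change was -1.10 (limma adjusted p = 0.353), and its highest level was again in SKO115.2, 14.6 CPM. Of the ligands of the receptors above, Ccl25 was between 4.30 and 7.11 CPM in every line, whereas Cdh1, which encodes E-cadherin, the ligand of αEβ7, ranged from 0 CPM in DKO548 to 225 CPM in SKO115.2. SKO163.5 was second for Cdh1 at 75.2 CPM, but DKO79.9, the highest line for Itgae, had Cdh1 at 20.6 CPM, near the median of 19.6 CPM, and DKO170.2, with Itgae at 0.511 CPM, had Cdh1 at 68.1 CPM.

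For sphingosine 1-phosphate, 11 of 15 listed genes for receptors, enzymes and transporters were analysed. The receptor gene S1pr4 (log2 fold change -0.96, limma adjusted p = 0.327; 6.89 CPM in SKO115.2) and the phosphatase gene Sgpp1 (-0.38, adjusted p = 0.399) had an unadjusted p under 0.05 (2 of 11, beside 10.2% of all listed genes), and none was called. Sgpl1, the lyase that breaks the lipid down, Sgpp1 and the kinase gene Sphk2 were the most abundant, at means of 51.9, 48.7 and 41.5 CPM, and Sphk2 varied only between 36.2 and 45.8 CPM. Cd69, whose product pulls S1PR1 off the cell surface, was 24.5 CPM in SKO115.2 and 20.4 CPM in SKO163.5, the lines with the first and the third highest S1pr1, but 4.06 CPM in DKO102.4, the second highest, and 1.03 CPM in DKO79.9. Cd69 was chosen after its values were seen.

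Of 26 integrin chain genes, 17 were analysed, the 3 described above among them, and none was called. Of the others, the β1 gene Itgb1 varied little between lines, whereas the α9 gene Itga9 (0 to 145 CPM) and the β3 gene Itgb3 (0.995 to 107 CPM), both chosen after their values were seen, varied widely. Itgb1, the other partner of α4, was between 228 and 366 CPM in all lines (log2 fold change 0.22, limma adjusted p = 0.463), and the αL and α6 genes Itgal and Itga6 had means of 233 and 215 CPM. Itgb2, the partner of αL in LFA-1, had a log2 fold change of -1.01 (limma adjusted p = 0.412). Itgb1 and Itgb2 were the 2 of 17 with an unadjusted p under 0.05, beside 10.2% of all listed genes. The 15 of 17 genes analysed for integrin activation were led by Tln1, Fyb and Rapgef1, at means of 415, 229 and 222 CPM. None of them had an unadjusted p under 0.05, beside 10.2% of all listed genes (median log2 fold change 0.013). Of 30 genes for chemokine and S1P receptor signalling, 28 were analysed and none was called. Rac2, Coro1a and Rac1 led them, at means of 524, 412 and 340 CPM. Was (log2 fold change -0.32, limma adjusted p = 0.367) and its binding partner gene Wipf1 (-0.66, adjusted p = 0.410) had an unadjusted p under 0.05. These were 2 of 28, beside 10.2% of all listed genes.

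Of 17 KLF family genes, 11 were analysed and none was called. Klf13, Klf3 and Klf10 were the most abundant, at means of 197, 89.8 and 44.9 CPM, beside 7.78 CPM for Klf2. Klf3 (log2 fold change -0.83, limma adjusted p = 0.284) was the 1 of 11 with an unadjusted p under 0.05, beside 10.2% of all listed genes. Per kilobase of exon the median levels were 24.3 CPM per kb for Klf13, 11.7 for Klf10, 7.87 for Klf3 and 0.225 for Klf2.

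Of 17 thymocyte stage markers, 16 were analysed, and none had an unadjusted p under 0.05, beside 10.2% of all listed genes. The largest log2 fold change among them was that of Il2ra, which encodes CD25 and was chosen after its values were seen (2.64, limma adjusted p = 0.566), and Rag1, Dntt and Cd24a, genes of immature thymocytes, were the most abundant, at means of 948, 732 and 480 CPM. In SKO115.2, SKO163.5 and DKO79.9, Rag1 was at 206, 654 and 228 CPM, below its median of 775 CPM over all lines, and Dntt at 372, 530 and 107 CPM, below its median of 675 CPM. Cd24a was at 524, 555 and 832 CPM in these 3 lines, above its median of 432 CPM. Other lines had like values, with Rag1 at 224 CPM in SKO132 and Cd24a at 830 CPM in DKO241. Of the T cell identity genes, Tcf7 (log2 fold change 0.66, limma adjusted p = 0.241), Cd2 (-1.96, adjusted p = 0.413) and Cd3e (0.46, adjusted p = 0.463) had an unadjusted p under 0.05 (3 of 15, beside 10.2% of all listed genes), and Thy1 and Lck had means of 938 and 847 CPM.

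Some markers of other cell types were also highest in SKO115.2, SKO163.5 and DKO79.9. Of 8 B cell genes 2 were analysed, Blk and Cd22, and their sum was 141 CPM in SKO115.2, 32.4 CPM in DKO79.9 and 9.30 CPM in SKO163.5, but 2.18 CPM or less in the other 12 lines. Nearly all of it was Blk, a kinase gene that some T cells also express, at 137.3, 26.6 and 8.60 CPM, and Cd22 was at 3.73, 5.77 and 0.699 CPM. The endothelial gene Pecam1 was at 157.4, 142 and 129 CPM in SKO115.2, SKO163.5 and DKO79.9, above 113 CPM in the next line, and the epithelial gene Epcam at 8.24, 3.33 and 3.50 CPM, above 1.92 CPM in the next. Epcam was chosen after its values were seen. Other genes of the same list did not follow: Col1a2 was at 22.4, 116 and 414 CPM in these 3 lines (median of all lines 218 CPM), and the sum of the list was 222, 389 and 959 CPM. The part of these cells or genes in the high levels of Klf2, Ccr9, Ccr4, Itgb7 and Itgae was not tested. The 2 of 9 macrophage and granulocyte genes analysed summed to between 3.11 and 9.32 CPM (Cd68 and Lyz2), the 2 of 8 dendritic cell genes to between 3.23 and 67.4 CPM (Bst2 above all), and the 2 of 7 erythroid and platelet genes to between 0.522 and 11.3 CPM (Epor above all, with its 2 highest values in SKO115.2 and DKO79.9). Of 6 NK cell genes 3 were analysed, with Gzma at 107 to 1280 CPM, highest in DKO79.9, and Klrb1c at 1.37 CPM or less. Of 12 stromal, endothelial and epithelial genes 5 were analysed, led by Col1a2, Pdgfrb and Pecam1, and their sum was between 150.2 CPM in DKOTu3 and 1190 CPM in DKO192.3. None of these genes had an unadjusted p under 0.05 between genotypes, beside 10.2% of all listed genes.

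The genes whose levels were ordered most like each of the 9 over the 15 lines, among the 9707 genes that averaged 5 CPM or more, are a description of these lines. Ccr7 had the closest match, with Esyt1, Mob3a and Cd52 at Spearman's rho of 0.957, 0.954 and 0.943. Itgb7 was most like Crip1, Il12rb1 and Rgs14 (0.943, 0.932 and 0.907), and Ccr9 most like Cdv3, Arhgap45 and Arhgef18 (0.925, 0.921 and 0.921). For Klf2 the nearest were Brd9, Ccndbp1 and Dmac2 (0.889, 0.882 and 0.854), and for S1pr1 the gene ENSMUSG00000091439, Arrb2, which encodes β-arrestin 2, and Etv5 (0.901, 0.865 and 0.851). Itgae was most like Cdk2, Traf2 and Sash3 (0.904, 0.893 and 0.889), Ccr4 most like Ankrd44, Depdc1b and Ppp6r1 (0.929, 0.907 and 0.904) and Cxcr4 most like Aida, Fam189b and Pde4dip (0.868, 0.796 and 0.782). Itga4 had the loosest match, with Rab22a, Snap29 and Rfx5 (0.789, 0.761 and 0.757).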

How the data were processed

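RNA from the 15 lines was sequenced by the study on a NextSeq 500. Per the submitters' processing notes, reads were handled with Trimmomatic 0.33, TopHat2 2.1.0, HTSeq 0.6.1 and edgeR on mm10. The listed gene starts match that assembly (GRCm38) for only 190 of 12172 genes, and this conflict was not resolved. The authors deposited 1 table of CPM values for 12545 genes, of which 12172 matched a symbol, with a lowest mean of 0.164 CPM. All values (100%) were whole multiples, within 0.01 reads, of 1 read, so reads were recovered, with 4847970 to 21681586 per line. No counting strand is given in the sources used here.

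CPM values were tested as log2(CPM + 1) with limma 3.58.1 (trend, two-sided, Benjamini-Hochberg over all 12545 genes, adjusted p under 0.01) in R 4.3.3, with an exact permutation test per gene beside it. Permutation p-values of correlations used 100000 resamples (Python 3.11.15, scipy 1.17.1). edgeR 4.0.16 and DESeq2 1.42.0 on recovered reads, other pseudocounts, scalings, filters and weights, and leaving out lines were alternatives. The code was tested on simulated data. Exon lengths came from GENCODE M21, and promoter sequences from RefSeq (GRCm38.p6).

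The 9 genes and the gene lists were chosen with earlier results of these data known. Named were the 9 genes, Lef1, from each list the genes with an unadjusted p under 0.05 and the 3 with the highest mean, and the 3 genes most like each of the 9 by rank. Promoters were fixed for Klf2, S1pr1 and the gene with the smallest p. The RefSeq table gave promoters for 6 of the 9 genes. S1pr1, Ccr7 and Itgae are named only. Intervals and limits from 3 reads cover counting error only. Results for some genes that the rule names are not reported here.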

Additional observations from a re-analysis of the deposited data

Results flagged for a closer look

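Single lines stood apart in 12 of the 20 groups of values examined (9 genes and Lef1 in 8 DKO and 7 E2a-/- lines), by the gap between the highest line and the next relative to the whole range. The chance figure of about 1 in 20 is no guide here, because CPM values are skewed and the same lines recur across genes. Among the DKO lines, DKO79.9 stood above the others for Klf2 (11.7 CPM, the others between 0.0467 and 4.50), Ccr9 (255 CPM, the others between 4.62 and 51.6), Ccr4 (94.2 CPM, the others between 3.34 and 28.7) and Itgae (179.9 CPM, the others between 0.0526 and 4.55). DKO102.4 stood above them for S1pr1, at 13.5 CPM beside 0 to 2.52 CPM. Among the E2a-/- lines, SKO115.2 stood apart for Klf2 (77.7 CPM, the others between 0.237 and 15.6), S1pr1 (36.8 CPM, the others between 0 and 4.41), Ccr7 (87.4 CPM, the others between 0.0552 and 19.0), Itgb7 (247 CPM, the others between 2.04 and 40.6) and Itgae (87.0 CPM, the others between 0.553 and 29.1). SKO137.1 stood apart for Itga4, at 70.4 CPM beside 1.38 to 18.45 CPM, and SKO132 for Cxcr4, at 446 CPM beside 186.1 to 286 CPM. These values are on the CPM scale, on which a high line weighs more than on the log scale used for the tests.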

How the results depend on the processing

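The count of the 9 genes called between genotypes was 0 under every alternative run, leaving out each line included (0 to 0), except DESeq2, which called 1 (Itgae). Leaving out each line in turn, the log2 fold change of S1pr1 ranged from -0.54 to 0.44, that of Ccr7 from -1.06 to 0.0080, that of Itga4 from -0.49 to 0.50 and that of Lef1 from -2.91 to -2.13. S1pr1 changed sign with a pseudocount of 0.1 (0.22), with array weights (0.35) and without DKO241 (0.014) or SKO115.2 (0.44), and Ccr7 without SKO115.2. Itga4 changed sign with array weights (-0.61), without DKO79.9 and SKO132 together (-0.88), and without DKO79.9 (-0.49), DKO192.3 (-0.35), DKO548 (-0.015), SKO95 (-0.21) or SKO132 (-0.32). Itgae changed sign with edgeR's quasi-likelihood test (0.23), its likelihood ratio test (0.27) and DESeq2 without outlier replacement (0.22, added after seeing the data). The signs for Klf2, Ccr9, Ccr4, Cxcr4 and Itgb7 held under all 28 alternatives. Their sizes moved: edgeR and DESeq2 on reads gave -2.62 to -2.65 for Klf2, -2.56 to -2.59 for Ccr7, -1.24 to -1.29 for S1pr1, -2.49 to -2.52 for Itgb7 and 0.0070 to 1.16 for Itga4, none called, and Ccr9 was -3.11 (adjusted p = 0.0612) without DKO79.9 and SKO132. For the relations to Klf2, leaving out each line gave r of 0.523 to 0.813 and rho of 0.515 to 0.708 with S1pr1, r of 0.439 to 0.722 with Ccr9 and of 0.521 to 0.723 with Ccr4, rho of -0.037 to 0.235 with Cxcr4, and r of -0.032 to 0.284 and rho of -0.301 to 0.064 with Itga4. Without SKO115.2, r with S1pr1, Ccr9 and Ccr4 no longer had an unadjusted permutation p under 0.05 (0.0534, 0.117 and 0.0557), nor had rho with S1pr1 without DKO102.4, SKO115.2 or SKO163.5 (0.54, 0.51 and 0.52). Over all listed genes 6 were called, and 29 with array weights, 1 by edgeR's quasi-likelihood test, 155 by its likelihood ratio test, 177 by DESeq2 (182 without replacement), 30 without DKO79.9 and SKO132, 19 at an adjusted p under 0.05 and 3 to 17 leaving out each line, with 17 without SKO132 and 10 without DKO79.9. The cause of these changes was not tested. Other scalings moved the median log2 fold change of all genes from -0.019 to -0.0025 and 0.011. No paired analysis was run because the labels name no pairing between lines of the 2 genotypes. Levels of 3 reads or fewer, in 4 lines for Klf2, 3 each for S1pr1 and Ccr7 and 2 for Itgae, limit what can be ordered.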
